A study of Mus musculus with 14 samples.

Results

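The 10 genes described here code for proteins of the cartilage matrix that are not collagens, or for the regulator that turns such genes on: Acan, Hapln1, Matn1, Matn3, Matn4, Comp, Cnmd, Snorc, Ucma and Sox9. They were taken by symbol from the 41934 genes of the RNA sequencing tables of fetal mouse brain, and where a symbol had several entries the one with the highest mean count was used. The comparison is between Dio3-/- and Dio3+/+ male littermates on a C57BL/6J background, from matings of heterozygous parents. Whole brains of single fetuses were used. The E13.5 groups held 4 Dio3+/+ and 2 Dio3-/- libraries, and the E18.5 groups held 3 and 5. Dio3 encodes the deiodinase that inactivates thyroid hormones, and the Dio3-/- fetuses carry a mutation that abolishes the enzyme's activity while its mRNA is still made, so the Dio3 level is no check of the genotype labels. By the deposited DESeq2 Wald test, Dio3 mRNA was lower in Dio3-/- than in Dio3+/+ brains at E13.5 (log2 fold change -0.89, standard error 0.23, adjusted p = 0.00584). It was higher at E18.5 (1.10, standard error 0.15, adjusted p = 8.45e-10). The E13.5 value rests on 2 Dio3-/- libraries, and against a t distribution 0 of all genes had an adjusted p under 0.05 at that age.

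In cartilage, chondrocytes secrete a gel of hyaluronan and aggrecan held in a mesh of collagen fibrils. Aggrecan, the Acan product, binds hyaluronan through link protein, the Hapln1 product, and matrilins and Comp bridge the fibrils and the proteoglycans. Hyaluronan, link proteins and relatives of aggrecan also form the matrix of the brain, and Sox9, which turns on Acan and Col2a1 in chondrocytes, is also made by neural progenitors and glia.

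The deposited tables give, for each gene and age, the mean of the normalized counts over all libraries of that age and the fit of the genotype difference, but no value of a single library. Group means given here were worked out from that mean, the fold change and the group sizes, and are therefore approximate and carry no error of their own. The error of each comparison is the standard error of the log2 fold change. A gene is called when its adjusted p is under 0.05 after a filter on low mean counts, and a positive log2 fold change means higher in Dio3-/-. In whole tissue, fewer cells of a type and less RNA per cell cannot be told apart.

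At E13.5, 5 of the 10 genes rose in Dio3-/- brains: Acan, Hapln1, Matn1, Matn4 and Cnmd. Their fold changes ran from 2.46 for Hapln1 to 7.85 for Acan. Sox9 was measured far more precisely than any of them and had a log2 fold change of 0.02. The other 4, Matn3, Comp, Snorc and Ucma, had mean counts below the filter minimum of 21.7 and so have no adjusted p. Over all 16436 genes that passed the filter at E13.5, 585 were called, which is 3.56%, and 203 were called higher, which is 1.24%. The 10 genes were chosen with earlier results of these data known, so setting their calls beside these shares is no test. Leaving out Snorc and Ucma, whose means did not exceed 3 counts in either group, all 8 log2 fold changes were above 0, with a median of 1.56. With both included, 9 of the 10 were above 0, Ucma being the exception, and the median was also 1.56. The median was -0.01 over all genes that passed the filter and -0.004 over all genes with a p-value. The 5 calls depend on how the test statistic is read. When the Wald statistic was read against a t distribution (4 degrees of freedom), 0 of the 10 genes and 0 of all genes had an adjusted p under 0.05, while 5 of the 10 and 799 of all genes that passed the filter had an unadjusted p under 0.05. Without the filter, or with the Wald statistic scaled to the width of its own centre, 2 of the 5 calls were left, those of Acan and Cnmd.

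**Figure D1:**
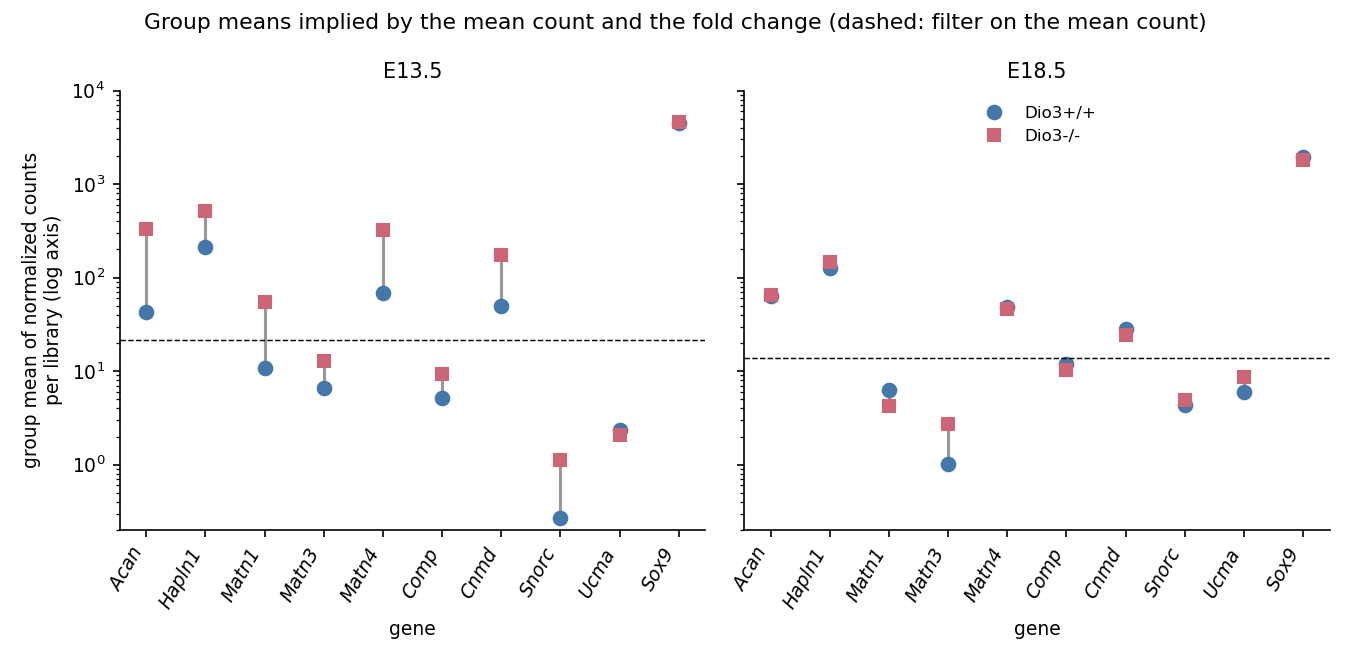
Group means of the normalized counts per library (vertical log axis) of the 10 genes in Dio3+/+ (circles) and Dio3-/- (squares) brains at E13.5 (left) and E18.5 (right), worked out from each gene's mean count and fold change. The dashed line is the filter on the mean over all libraries, and at E13.5 the squares of Acan, Hapln1, Matn1, Matn4 and Cnmd stand well above their circles.

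Acan (ENSMUSG00000030607.7, chr7:79053483-79115099 of GRCm38, plus strand) encodes aggrecan, the large proteoglycan whose chondroitin sulfate chains hold water in cartilage. At E13.5 its group mean was 42.5 normalized counts in Dio3+/+ and 334 in Dio3-/- brains. The log2 fold change was 2.97 (95% interval 1.71 to 4.23, adjusted p = 0.000464). This was the largest change of the 5, and the fitted spread between libraries of one genotype was also large, at 50.6% of the level. At E18.5 the group means were 63.2 and 64.7, and the log2 fold change was 0.03 (95% interval -0.42 to 0.49, adjusted p = 0.998). That interval allows a change of up to 1.41-fold upward or to 0.746 of the Dio3+/+ level.

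Hapln1 (ENSMUSG00000021613.9, chr13:89539796-89611652, plus strand) encodes the link protein that fixes aggrecan to hyaluronan. It had group means of 210 in Dio3+/+ and 516 in Dio3-/- brains at E13.5. The log2 fold change of 1.30 (95% interval 0.48 to 2.11) came with an adjusted p of 0.0499, the nearest to the threshold among the 5 called genes. Its adjusted p became 0.0558 with a minimum mean count of 10 in place of the filter. At E18.5 Hapln1 had group means of 128 and 148 and a log2 fold change of 0.20 (95% interval -0.10 to 0.51, adjusted p = 0.885).

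The matrilins are adaptor proteins that link collagen fibrils and proteoglycans, and Matn1 and Matn3 are the ones known best from cartilage. Matn1 (ENSMUSG00000040533.7, chr4:130944385-130955475, plus strand) had E13.5 group means of 10.9 in Dio3+/+ and 55.4 in Dio3-/- brains. Its log2 fold change was 2.34 (95% interval 0.95 to 3.73, adjusted p = 0.0323). The overall mean of 25.7 lay just above the filter minimum, and only the Dio3-/- group was above it, so the gene was tested because of the group in which it was high. Matn4 (ENSMUSG00000016995.17, chr2:164389393-164405160, minus strand), a matrilin found in many tissues including brain, went from 69.2 in Dio3+/+ to 327 in Dio3-/- brains. It had a log2 fold change of 2.24 (95% interval 0.89 to 3.59, adjusted p = 0.0364). Without the filter the adjusted p was 0.0602 for Matn1 and 0.0673 for Matn4. Of the exons of Matn4, 149 bases (2.88%) overlap those of Rbpjl on the other strand, from which the unstranded counts cannot be separated, whereas the exons of the other 9 genes overlap no other gene. Matn3 (ENSMUSG00000020583.4, chr12:8947929-8972028, plus strand) was near the limit of detection, with group means of 6.61 and 12.9 at E13.5 and a log2 fold change of 0.96 (95% interval -0.46 to 2.38).

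At E18.5 Matn4 had group means of 48.2 in Dio3+/+ and 45.6 in Dio3-/- brains, and a log2 fold change of -0.08 (95% interval -0.55 to 0.39, adjusted p = 0.998). Matn1 was under the filter minimum of 13.8, with group means of 6.34 and 4.21 and a log2 fold change of -0.59 (95% interval -2.24 to 1.06). Matn3 had group means of 1.02 and 2.70 counts, at which no fold change is given.

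Comp (ENSMUSG00000031849.9, chr8:70373558-70382066, plus strand), also called thrombospondin-5, bridges collagen fibrils in cartilage and tendon. It was low at both ages, with group means of 5.23 in Dio3+/+ and 9.22 in Dio3-/- brains at E13.5, and of 11.8 and 10.4 at E18.5. Its log2 fold changes of 0.82 (95% interval -0.73 to 2.37) and -0.18 (95% interval -1.11 to 0.74) had wide intervals that both include 0.

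Cnmd (ENSMUSG00000022025.13, chr14:79637690-79662170, minus strand) encodes chondromodulin, a membrane glycoprotein of chondrocytes that inhibits the growth of blood vessels. Its E13.5 group means were 49.4 in Dio3+/+ and 174 in Dio3-/- brains. The log2 fold change of 1.82 (95% interval 1.18 to 2.46) had the smallest adjusted p of the 10 genes, 6.35e-06. Cnmd was not the gene with the largest change, but its fitted spread between libraries, 23.9%, was the smallest of the 5. At E18.5 the group means were 28.2 and 24.6, with a log2 fold change of -0.20 (95% interval -0.79 to 0.39, adjusted p = 0.985).

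Snorc and Ucma code for small products of chondrocytes, a membrane proteoglycan and a secreted protein rich in Gla residues. Snorc (ENSMUSG00000026258.5, chr1:87470271-87475482, plus strand) had group means of 0.27 in Dio3+/+ and 1.12 in Dio3-/- brains at E13.5. Ucma (ENSMUSG00000026668.10, chr2:4976122-4985748, plus strand) had group means of 2.33 and 2.08 at that age. Neither exceeded 3 counts in either group, so no fold change is given for them at E13.5. At E18.5 Snorc had group means of 4.35 and 4.94 (log2 fold change 0.18, 95% interval -1.23 to 1.60). The E18.5 values of Ucma were 6.04 and 8.61 (log2 fold change 0.51, 95% interval -0.65 to 1.67). Both lay below the filter, and a change of 2-fold in either direction is within the interval of Snorc, as is a change of 2-fold upward within that of Ucma.

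Sox9 (ENSMUSG00000000567.5, chr11:112782224-112787760, plus strand), the transcription factor that sets the chondrocyte fate, was the most abundant of the 10 genes at both ages. At E13.5 its group means were 4524 in Dio3+/+ and 4583 in Dio3-/- brains. The log2 fold change of 0.02 had a 95% interval of -0.10 to 0.14. With the normal distribution, that interval allows up to a 1.10-fold rise or a fall to 0.934 of the Dio3+/+ level. At E18.5 the group means were 1969 and 1793, and the log2 fold change was -0.14 (95% interval -0.22 to -0.05). That difference had an unadjusted p of 0.00268 and an adjusted p of 0.131, so it was not called.

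**Figure D2:**
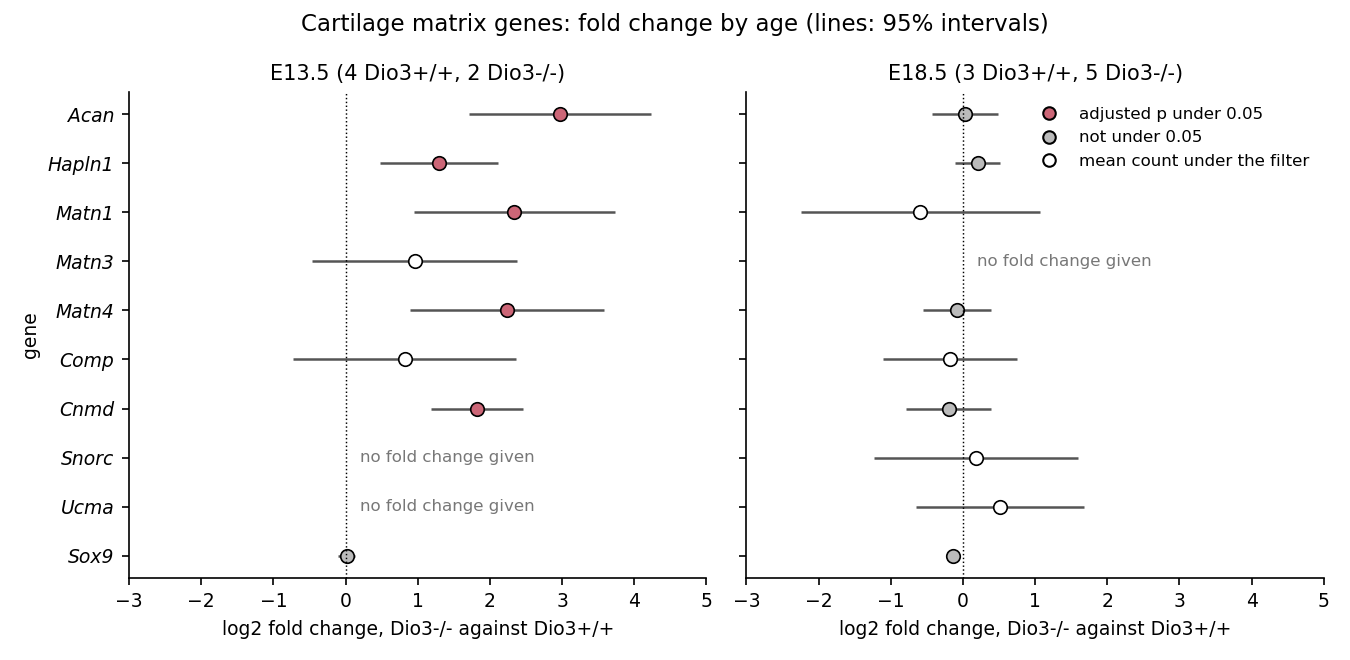
Log2 fold change of Dio3-/- against Dio3+/+ (horizontal axis) of each gene (vertical axis) at E13.5 (left) and E18.5 (right), with 95% intervals as lines and no point where neither group mean exceeded 3 counts. The 5 filled red points at E13.5, Acan, Hapln1, Matn1, Matn4 and Cnmd, lie right of 0 with their intervals, and at E18.5 the points of these 5 genes lie nearer 0.

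At E18.5 none of the 10 genes was called by the DESeq2 Wald test (0 of 10), against 242 of 17607 genes that passed the filter (1.37%). Of the 10, 5 passed the filter and 1, Sox9, had an unadjusted p under 0.05. Without Matn3 the median log2 fold change was -0.08, with 4 genes above 0 and 5 below, and the median over all genes that passed the filter was 0.00. The limit set by the error was small for the genes with more counts. For Acan, Hapln1, Matn4 and Cnmd the upper ends of the E18.5 intervals were 0.49, 0.51, 0.39 and 0.39.

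Whether the genotype difference itself changed with age was tested as the difference of both log2 fold changes divided by its standard error, over the 17793 genes with a mean count of 10 or more at both ages. Of these, 347 (1.95%) had an adjusted p under 0.05. Acan was one of these, and its log2 fold change was lower at E18.5 than at E13.5 (difference -2.94, 95% interval -4.28 to -1.60, adjusted p = 0.00268). So was Cnmd (difference -2.02, 95% interval -2.89 to -1.15, adjusted p = 0.00105). Matn4 missed the threshold with a difference of -2.32 (95% interval -3.75 to -0.89, adjusted p = 0.0639). The differences of Hapln1 (-1.09, adjusted p = 0.273) and Sox9 (-0.15, adjusted p = 0.458) were not called either. Matn1, Matn3, Comp, Snorc and Ucma had a mean count under 10 at one or both ages and were not tested. Against the t distribution 0 of the 10 genes and 0 of all genes differed between ages at an adjusted p under 0.05, while 3 of the 10 and 645 of all had an unadjusted p under 0.05, and with a minimum mean count of 50 the 1 gene left was Acan, since Cnmd was then no longer tested.

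The 5 called genes also differed from most genes of similar abundance in their error at E13.5. Each gene was set beside the 500 genes nearest to it in mean count. The standard error of Acan, 0.64, was 3.34 times the median of those genes and above that of 496 of them. Matn4, with 0.69, stood at 3.74 times the median, Hapln1 at 3.14 times and Matn1 at 1.65 times, and the standard errors of 497, 493 and 500 of their 500 neighbours were lower. For Cnmd the ratio was 1.39, with 482 of 500 lower. For Sox9 (1.06 times), Matn3 (0.996 times) and Comp (0.939 times) the ratio was near that of an even match. Lower standard errors were held by 311, 226 and 44 of their 500 neighbours, so that of Comp was among the lower ones. The fitted error of the called genes was thus larger than that of genes of like abundance, but the tables do not show which libraries were high or low, nor whether the groups overlap. At E18.5 the ratios of the 10 genes ran from 0.909 for Sox9 to 1.21 for Matn1, and that of Acan was 1.17. Lower standard errors were still held by 487 of the 500 neighbours of Matn1, 472 of those of Hapln1 and 470 of those of Acan. For Matn4 and Cnmd these counts were 354 and 158.

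**Figure D3:**
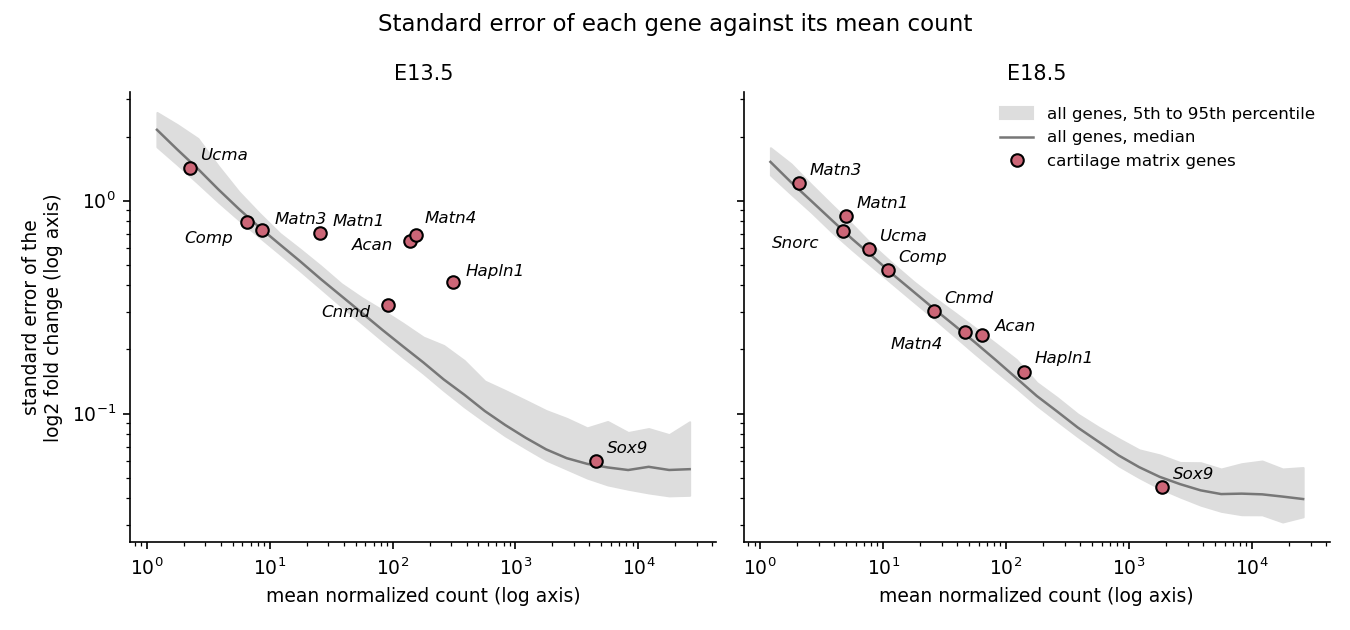
Standard error of the log2 fold change (vertical log axis) against the mean normalized count (horizontal log axis) at E13.5 (left) and E18.5 (right), with the median (line) and the 5th to 95th percentiles (band) of all genes. Acan, Matn4, Hapln1 and Matn1 lie well above the band at E13.5 and Cnmd just above it. The points of these genes lie nearer the line at E18.5, and Snorc at E13.5, with a mean below 1, is outside the plotted range.

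To compare genes with each other, each group mean was divided by the exon length of the gene and scaled to a sum of 1000000 over all genes. On this length-scaled level, Sox9 came first in E13.5 Dio3+/+ brains with 154. It was followed by Hapln1 with 5.01, Cnmd with 3.78, Matn4 with 1.88, Acan with 0.802 and Matn1 with 0.770. Ucma (0.371), Matn3 (0.309), Comp (0.248) and Snorc (0.053) came last. The gaps between Acan and Matn1 and among Ucma, Matn3 and Comp were smaller than the fitted spread between libraries of these genes, so their order is not established. The gap between Hapln1 and Cnmd was smaller than the spread of Hapln1 but not than that of Cnmd. In the same way, the gap between Matn1 and Ucma was smaller than the spread of Matn1 but not than that of Ucma. In E13.5 Dio3-/- brains the length-scaled levels were 161 for Sox9, 13.7 for Cnmd, 12.7 for Hapln1, 9.15 for Matn4, 6.48 for Acan and 4.01 for Matn1. Among these genes below Sox9, each gap to the next was smaller than the fitted spread of the higher gene, so their order is not established.

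At E18.5 the length-scaled level in Dio3+/+ brains was 77.4 for Sox9, 3.53 for Hapln1, 2.49 for Cnmd, 1.51 for Matn4 and 1.37 for Acan. The gap between Matn4 and Acan was smaller than the fitted spread of either, so their order is not established. The other 5 genes had 1.11 or less. The ages were normalized separately, so their levels were not compared.

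Several of the genes have relatives in the tables, and their shares of the summed length-scaled level of the family were compared. Acan is one of the lecticans, the proteoglycans that bind hyaluronan, and was 0.118% of their summed level in Dio3+/+ and 0.929% in Dio3-/- brains at E13.5. Ncan, the brain lectican neurocan, held 76.1% and 74.0%, and its log2 fold change was -0.05 (adjusted p = 0.883). Vcan, with a log2 fold change of 0.07, and Bcan, with 0.05, were not called either. The lectican that was called was the one with the lowest level. Among the link proteins the share of Hapln1 was 65.7% in Dio3+/+ and 83.1% in Dio3-/- brains, while Hapln3 (-0.24) and Hapln4 (-0.02) were not called. Matn1 and Matn4 together with Matn2 gave nearly all matrilin mRNA at E13.5. Matn2, a matrilin of many tissues, held 67.9% in Dio3+/+ and 33.1% in Dio3-/- brains, with a log2 fold change of 0.08 (adjusted p = 0.947). Matn4 held 20.4% and 44.4%, and Matn1 8.35% and 19.5%. Of the SoxE factors, Sox9 held 85.4% and 84.7%, and Sox8 (-0.13) and Sox10 (0.75, adjusted p = 0.150) were not called.

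The 10 genes lie on 9 chromosomes, and only Matn4 and Ucma share one, chromosome 2. RefSeq promoters of GRCm38.p6 were found for 7 of them, 8 promoters in all, as Matn4 has 2. Comp, Snorc and Sox9 had no entry. The windows are the 250 bases before the RefSeq start, which can differ from the gene starts given above. The Acan window ends at 79053225, short of the gene start at 79053483. The Hapln1 window (chr13:89540386-89540635) and a Matn4 window (chr2:164404819-164405068) lie inside the gene spans given above. Printed are the windows of Acan and Cnmd, the pair whose change differed between the ages, because they stand at the ends of the range in base composition. They are written 5′ to 3′ on the strand of the gene with each CG dinucleotide in capitals.
Acan, chr7:79052976-79053225, plus strand: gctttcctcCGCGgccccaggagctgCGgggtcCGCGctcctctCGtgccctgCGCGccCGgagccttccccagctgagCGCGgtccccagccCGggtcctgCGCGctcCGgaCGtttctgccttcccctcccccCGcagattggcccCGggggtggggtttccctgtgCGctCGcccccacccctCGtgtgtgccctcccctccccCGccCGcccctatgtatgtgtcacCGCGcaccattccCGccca
Cnmd, chr14:79662184-79662433, minus strand: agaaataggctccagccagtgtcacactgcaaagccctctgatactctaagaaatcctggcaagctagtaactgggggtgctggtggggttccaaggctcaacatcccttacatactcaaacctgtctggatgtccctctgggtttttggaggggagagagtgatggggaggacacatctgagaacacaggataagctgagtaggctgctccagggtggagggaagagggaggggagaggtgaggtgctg
The Acan window holds 26 CG dinucleotides and is 74.4% G or C. The Cnmd window holds 0 CG dinucleotides and is 54.0% G or C. Over all 32851 promoters the median was 6 CG dinucleotides and 52.4% G or C. Of the other called genes, Hapln1 had 2 CG dinucleotides, Matn1 had 4, and Matn4 had 8 and 14 in its promoters, so the genes that rose together at E13.5 did not share this feature. The windows were searched on both strands for the SOX core (A or T, A or T, CAA, A or T, G), for the nuclear receptor half-site AGGTCA and for the TATA box TATAAA. None of the 8 windows (0 of 8) held any of these, while 21.8%, 14% and 12.4% of all promoters did. No match says only that these letters are not in these windows.

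Other genes of the cartilage and of the hyaluronan matrix were followed with 98 genes in 9 lists. These lists, too, were chosen with earlier results of these data known, so their shares of calls are descriptive. At E13.5, 14 of the 98 were called, 9 higher and 5 lower, beside 3.56% of all genes that passed the filter, and the median log2 fold change was 0.12. Against the t distribution 0 of the 98 were called and 17 had an unadjusted p under 0.05, beside 799 of the 16436 genes that passed the filter. The list with the largest share of calls was that of the cartilage collagens, fibril proteins that chondrocytes make together with aggrecan. Of these 8 collagens, 4 rose and 0 fell. Col9a1 went from 136 to 528 counts (log2 fold change 1.96, standard error 0.59, adjusted p = 0.0323). Col2a1, the main cartilage collagen, went from 4747 to 7692 (0.70, standard error 0.21, adjusted p = 0.0281), and Col9a2 (0.79) and Col11a2 (0.68) rose as well. Summed over the 8 collagens the group means were 8112 in Dio3+/+ and 13470 in Dio3-/- brains. The median log2 fold change of the collagens was 0.69, against 1.56 for the 8 genes above 3 counts described here.

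Few of the remaining structural genes were called. Of 16 other cartilage matrix genes only Dcn, the small proteoglycan decorin, was called (log2 fold change 0.50, adjusted p = 0.0146), and Bgn, the most abundant, was not (0.27, adjusted p = 0.771). Mgp, an inhibitor of calcification, had a log2 fold change of 1.54 and an adjusted p of 0.0503, which is 0.0499 in the deposited adjustment. Among 22 genes for chondroitin sulfate, the sugar chain of aggrecan, Papss2 rose from 107 to 249 counts (1.22, standard error 0.22, adjusted p = 8.79e-06). Papss2 makes the sulfate donor that chondrocytes need. The other 21 were not called, and Chsy1, the one with the highest count, had a log2 fold change of -0.04. None of 5 matrilin and thrombospondin relatives was called by the DESeq2 test (0 of 5, with 1 at an unadjusted p under 0.05), and Thbs1, the most abundant, had 0.46 (adjusted p = 0.815). Of 13 matrix proteases and inhibitors, Adamts9, which cuts aggrecan and versican, rose (0.48, adjusted p = 0.00438), and Timp2 had -0.04.

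Calls among the regulators went in both directions. Of 9 cartilage transcription factors 3 fell and 0 rose: Sox6 fell by 0.56, Sox5 fell by 0.51 and Mef2c fell by 0.47 on the log2 scale, with adjusted p of 0.00109 for Sox5 and 0.00502 for Mef2c. Sox5 and Sox6 act with Sox9 in chondrocytes, and all 3 are also made by neural cells. Among 10 signals and receptors, Pth1r, the receptor of parathyroid hormone-related protein, rose (0.45, adjusted p = 0.0341) and Fgfr3 fell (-0.35, adjusted p = 0.00325). In the hyaluronan matrix of brain, 13 genes, Has2, a hyaluronan synthase, rose (0.37, adjusted p = 0.0465) and Ptprz1, a receptor with chondroitin sulfate chains on radial glia, fell (-0.41).

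At E18.5, 7 of the 98 genes were called, 3 higher and 4 lower, beside 1.37% of all genes that passed the filter, and the median log2 fold change was 0.00. Against the t distribution 0 of the 98 were called and 12 had an unadjusted p under 0.05, beside 714 of the 17607 genes that passed the filter. None of the 8 cartilage collagens was called by the DESeq2 test (0 of 8, with 4 at an unadjusted p under 0.05, all higher), with a median of 0.16 and summed group means of 2517 and 2747. Mgp (0.85), Dcn (0.35) and Mef2c (0.30) were higher in Dio3-/- brains. Tnc (-0.23), Has2 (-0.42), Ptprz1 (-0.24) and Chst7 (-0.61) were lower. Thus Dcn and Ptprz1 were called in the same direction at both ages, and Has2 and Mef2c in opposite directions.

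**Figure D4:**
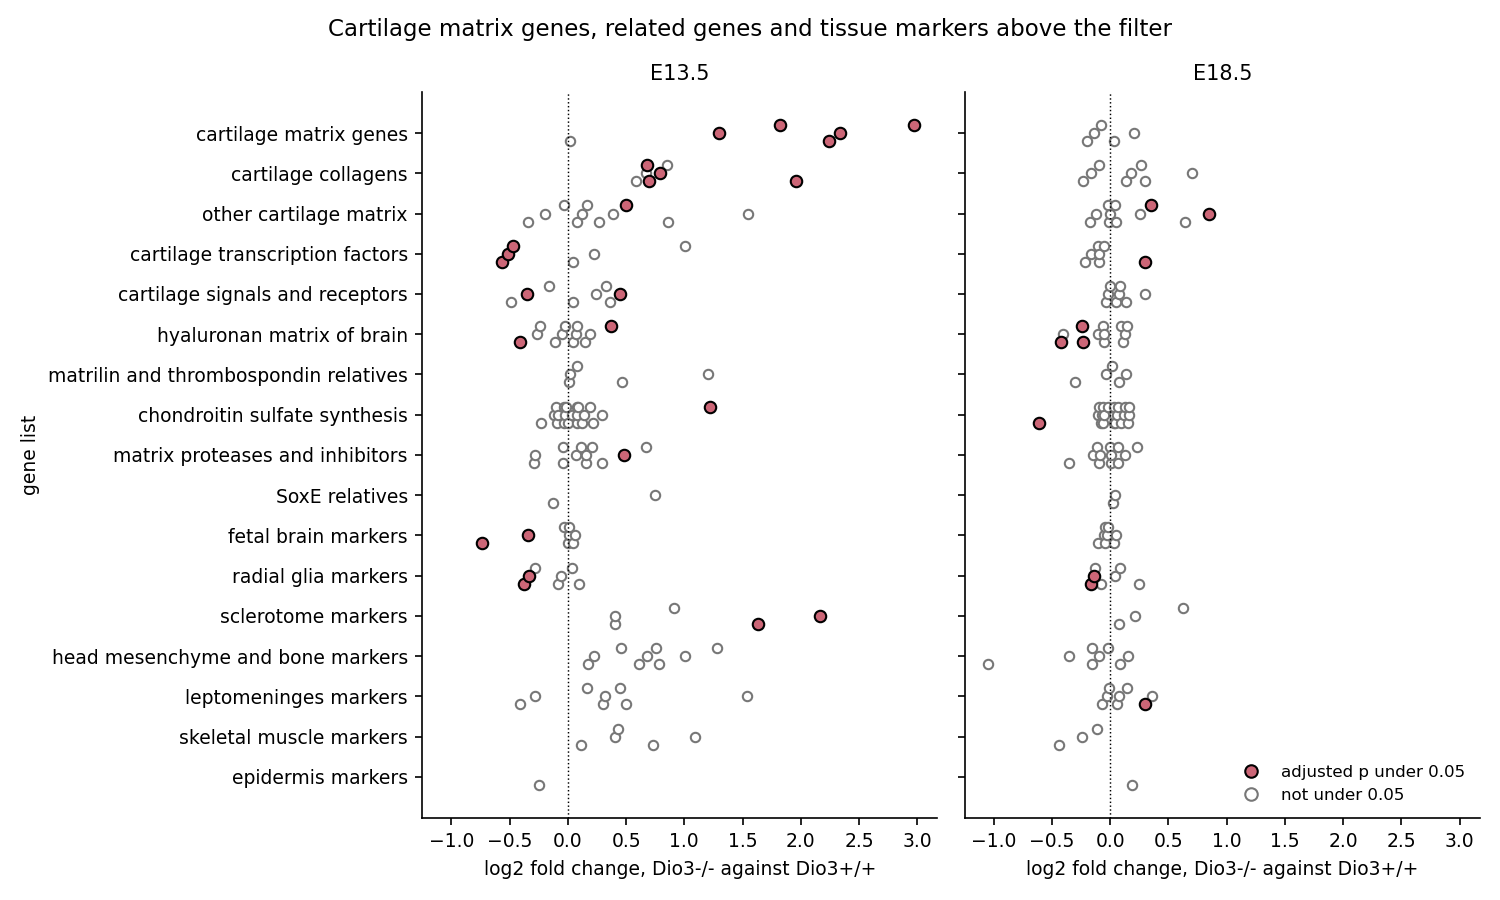
Log2 fold change of Dio3-/- against Dio3+/+ (horizontal axis) of the genes that passed the filter, by list (vertical axis), at E13.5 (left) and E18.5 (right), with called genes filled. The cartilage matrix genes and the cartilage collagens lie to the right at E13.5, where 5 and 4 of them were called. At E18.5, where 0 were called, the cartilage matrix genes lie around 0, and 5 of the 8 collagens lie right of it.

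Markers of the tissue and of tissues next to it were listed beside these genes. The fetal brain markers were abundant, as the labels would have it, with 58517 counts of Map2 in E13.5 Dio3+/+ brains and a log2 fold change of 0.01. Of these 8 markers Pax6 (-0.74) and Sox2 (-0.34) fell at E13.5, and of 7 radial glia markers Nfia (-0.33) and Nfib (-0.38) fell, while Vim, the most abundant, had -0.08. Of the markers of tissues outside the brain, Pax1 and Pax9 rose at this age and no other was called. Of 6 genes listed as markers of the sclerotome, which holds the precursors of vertebral cartilage, Pax9 rose from 15.3 to 68.6 counts (log2 fold change 2.16, standard error 0.60, adjusted p = 0.0131). Pax1 rose from 14.9 to 46.3 (1.63, standard error 0.51, adjusted p = 0.0388), and Foxc2, the most abundant, had 0.41. Pax1 and Pax9, like Matn1, passed the filter only through the Dio3-/- group. The summed group means of the 6 were 441 in Dio3+/+ and 727 in Dio3-/- brains, and Pax1 and Pax9 made up the smaller part of both sums.

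Head mesenchyme and bone markers summed to 2205 in Dio3+/+ and 3407 in Dio3-/- brains, with 0 of 10 called, a median log2 fold change of 0.65 and 0.61 for Prrx1. At an unadjusted p under 0.05, 2 of these were higher and 1 lower, the bone matrix gene Ibsp with 10.8 and 0.20 counts. Of 8 leptomeninges markers 0 were called and 2 had an unadjusted p under 0.05 (summed 3165 and 4186, Foxc1 0.45). Skeletal muscle markers summed to 364 and 560, with 0 of 10 called and 1, Myh3, at an unadjusted p under 0.05 (log2 fold change 1.09, adjusted p = 0.0851). Tnnc2 was listed at 0. Epidermis markers summed to 67.9 and 76.4 with 0 of 5 called or at an unadjusted p under 0.05, and Perp had -0.25. These lists thus had higher sums in the Dio3-/- group at E13.5, as the cartilage genes did, and their part in the rise of Acan, Hapln1, Matn1, Matn4 and Cnmd was not tested.

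At E18.5 the sclerotome markers summed to 284 in Dio3+/+ and 329 in Dio3-/- brains, with 0 of 6 called and Foxc2 at 0.21. Head mesenchyme and bone markers had 986 and 936 with 0 of 10 called, and muscle markers 226 and 192 with 0 of 10 called. The leptomeninges markers summed to 7354 and 8524 and the epidermis markers to 226 and 254. Head mesenchyme and muscle markers thus had lower sums in the Dio3-/- group, and sclerotome, leptomeninges and epidermis markers higher ones. Of the radial glia markers Vim (-0.14) and Nfia (-0.17) fell, and of the leptomeninges markers Ptgds rose (0.30). The fetal brain markers (0 of 8) and the epidermis markers (0 of 5) had no call at this age. In the E18.5 lists of sclerotome, head mesenchyme and bone, muscle, fetal brain and epidermis markers, 0 genes had an unadjusted p under 0.05.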

How the data were processed

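Total RNA of whole brains from male fetuses was depleted of ribosomal RNA and sequenced in 2 batches. Per the study's methods and processing notes, the authors trimmed adaptors with cutadapt 3.1, mapped reads to GRCm38 with STAR 2.5.3a, removed rRNA and tRNA reads with bedtools 2.26.0, and counted genes of GENCODE M22 with HTSeq in union mode and without strand. The authors evened out the batches with ComBat-seq and then fitted DESeq2 1.30.1 within each age. The labels do not say which library was in which batch, so its effect on the values was not tested.

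The mean normalized count deposited by the authors is a signal, the average over all libraries of one age. The deposited log2 values are the fold change and its standard error, the deposited Wald statistic is a score, and the deposited p-value comes from that score and a normal distribution. These tables hold no value per library. Library depths are thus unknown, and precision is known from the standard errors alone. The samples were grouped by genotype and age as labelled.

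From these columns the filter on low means (50 quantiles tried) and the Benjamini-Hochberg adjustment over the genes it kept were computed again with numpy 2.4.6, scipy 1.17.1 and statsmodels 0.14.6. The fitted spread between libraries is the part of the standard error that counting does not give, as a percent of the level. The steps were tested on simulated data. These were drawn from a normal distribution with the deposited standard errors, so the test could not check those errors or the normal distribution. Gene positions and lengths came from GENCODE M21, to which 41897 of 41934 genes were matched. Named are the 10 genes, of each list the called genes and the one with the highest count, and Dio3, with values added for Hapln3, Hapln4, Mgp, Matn2, Sox10, Vcan, Bcan, Ibsp, Tnnc2 and Hes1 after they were seen. The members and lists were chosen with earlier results of these data known. The alternatives were other filters, adjustments, reference distributions and thresholds, a centring and another gene length.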

Additional observations from a re-analysis of the deposited data

Results flagged for a closer look

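Among the 10 genes, Acan and Cnmd were marked because the genotype difference at E18.5 differed from that at E13.5 by the test of the difference itself. Acan had a difference of -2.94 in log2 fold change (adjusted p = 0.00268), from 2.97 at E13.5 to 0.03 at E18.5. Cnmd had a difference of -2.02 (adjusted p = 0.00105), from 1.82 to -0.20.

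Of 128 tested genes of the related and marker lists, 6 (4.69%) were marked, against 347 of 17793 genes (1.95%) in all. The lists were chosen with earlier results of these data known, so setting these shares side by side is no test. Against a t distribution 0 of these 128 and 0 of all genes had an adjusted p under 0.05, while 11 and 645 had an unadjusted p under 0.05, so that these calls, like those of Acan and Cnmd, were lost. Papss2, the enzyme for the sulfate donor, had a difference of -1.10 (adjusted p = 0.00487), in the same direction as Acan and Cnmd, and Has2 had -0.80 (adjusted p = 0.000677). The transcription factors Sox6 (0.47, adjusted p = 0.000517) and Mef2c (0.77, adjusted p = 3.0e-06) differed the other way, as did the neural progenitor genes Pax6 (0.79, adjusted p = 2.19e-09) and Hes1 (0.53, adjusted p = 0.0195). The ages differ in the number of Dio3-/- libraries, 2 at E13.5 and 5 at E18.5, and the part of single libraries in these differences was not tested.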

How the results depend on the processing

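The count of 5 genes called at E13.5 was 4 with a minimum mean count of 10, and 5 with the deposited adjusted p or an unadjusted p under 0.01. It was 2 without a filter and 2 with the Wald statistic scaled to the width of its own centre, where Acan (adjusted p = 0.00545) and Cnmd (adjusted p = 0.000224) were left. With a t distribution it was 0, as were the 14 called among the 98 related genes and the 585 of all genes. With the scaled statistic the latter were 9 and 320, and at an unadjusted p under 0.01 all genes gave 1012. At E18.5 an unadjusted p under 0.01 gave 1 of the 10 genes (Sox9), 11 of the related genes in place of 7 and 624 of all genes in place of 242, and the t distribution gave 0 of the related genes and 1 of all. Of the 2 genes that differed between ages, 1 remained with a minimum mean count of 50 and 0 with the t distribution. Centring changed no direction. With the longest transcript in place of the exon length, Snorc and Ucma exchanged places in the order of levels at E18.5. No paired analysis was possible because the tables hold no value per library, and leaving out single libraries could not be run for the same reason. The counts of Matn3, Comp, Snorc and Ucma were low at both ages, which left wide intervals. The depth of the libraries is unknown.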
